A study of Caenorhabditis elegans with 2 samples.

Results

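The tubulin genes of Caenorhabditis elegans described here are 8 genes, 5 with wide expression (tba-1, tba-2, tba-4, tbb-1 and tbb-2) and 3 known from neurons (tbb-4, mec-7 and mec-12), out of 19973 protein-coding genes on the nuclear chromosomes. They were chosen by name, with earlier peak signals of these data known, so their counts and signals are a description and no test was made on them. For each gene, every peak summit from 2000 bp upstream to 500 bp downstream of the annotated 5′ end was taken, and this stretch is called the promoter window. The peaks come from chromatin immunoprecipitation and sequencing (ChIP-seq) of an eGFP-tagged CEH-30 protein, a BarH-type homeodomain transcription factor. Whole late embryos of strain OP120 were used, of genotype unc-119(ed3) III; wgIs120 and of pooled male and female sex. The 2 biological replicates form 1 group, and neither an untagged strain nor the control library was analysed here. In which cells the tagged protein was made is not given in the sources used here, and peak lists hold no expression values against which to check the stage. In whole embryos, strong binding in few cells and weak binding in many cannot be told apart, and a listed peak can also be background.

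Microtubules are built from dimers of alpha and beta tubulin, and animals carry several genes, called isotypes, for each. In this worm tba-1 and tba-2 (alpha) with tbb-1 and tbb-2 (beta) are best known for the mitotic spindles of the early embryo, and tba-4 is a further alpha tubulin found in many tissues. The gene tbb-4 encodes a beta tubulin of ciliated sensory neurons. The genes mec-7 (beta) and mec-12 (alpha) are needed in the touch receptor neurons, whose broad microtubule bundles depend on them, and mec-12 is also active in some other neurons. Many worm mRNAs receive a spliced leader, so an annotated 5′ end can be a splice acceptor that lies downstream of the point where transcription starts.

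The promoters of tbb-1, tbb-4 and mec-7 are shown because they span the range of the data: a strong peak, a weak peak and none. Each is the 300 bases before the annotated 5′ end, read 5′ to 3′ on the strand of the gene, from the RefSeq copy of WBcel235 (the ce11 assembly). Capitals mark matches, on either strand, to 8 words of 6 bases that earlier work on these data singled out. The first 5, called the CG words here, were the words highest at optimal summits in that work. The optimal summits of tba-2 and tbb-1 were among these, so matches there are in part fixed in advance. The word GACGCA can overlap with the word ACGCAG, the word CGCGCA can overlap with the word GCGCAC, and the remaining one is GCGCCA. The other 3 are homeodomain words: TAATTG, then TAATTA, which reads the same on both strands, then TAAACG.
tbb-1, III:10742433-10742732, minus strand: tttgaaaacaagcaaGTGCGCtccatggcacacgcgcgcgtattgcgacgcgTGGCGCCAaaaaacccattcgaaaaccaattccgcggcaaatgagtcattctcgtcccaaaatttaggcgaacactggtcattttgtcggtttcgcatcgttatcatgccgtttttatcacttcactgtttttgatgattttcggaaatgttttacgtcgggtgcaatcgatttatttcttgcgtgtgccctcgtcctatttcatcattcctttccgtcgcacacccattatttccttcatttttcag
tbb-4, X:9436894-9437193, minus strand: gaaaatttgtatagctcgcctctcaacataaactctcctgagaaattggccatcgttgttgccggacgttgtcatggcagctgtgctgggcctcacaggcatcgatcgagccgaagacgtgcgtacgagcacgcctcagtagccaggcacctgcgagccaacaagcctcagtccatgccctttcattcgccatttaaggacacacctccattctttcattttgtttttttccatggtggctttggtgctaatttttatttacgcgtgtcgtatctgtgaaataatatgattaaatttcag
mec-7, X:7776690-7776989, minus strand: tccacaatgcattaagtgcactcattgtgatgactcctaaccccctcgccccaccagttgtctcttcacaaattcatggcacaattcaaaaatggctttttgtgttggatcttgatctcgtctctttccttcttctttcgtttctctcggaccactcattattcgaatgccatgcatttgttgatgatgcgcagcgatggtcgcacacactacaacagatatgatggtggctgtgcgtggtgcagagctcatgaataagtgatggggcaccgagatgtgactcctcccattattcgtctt

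The tbb-1 promoter held 3 matches to the CG words, 1 to GCGCAC and 2 to GCGCCA, which overlap, 1 on each strand. The optimal peak summit of tbb-1, 240 bp upstream of the 5′ end, stood directly after the second run of capitals. Neither the tbb-4 nor the mec-7 promoter held any of the 8 words. The tbb-1 and tbb-4 sequences end in TTTCAG, the usual form of a worm 3′ splice site, and mec-7 does not.

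The summits of 3 other members had an overlapping peak in only 1 replicate, and their 101 bases centred on the strongest pooled summit are shown for comparison, with the same marks.
tba-4, II:10918205-10918305, plus strand: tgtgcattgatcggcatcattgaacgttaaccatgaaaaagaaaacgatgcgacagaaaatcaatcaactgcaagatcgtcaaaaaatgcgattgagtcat
tbb-2, III:4018557-4018657, minus strand: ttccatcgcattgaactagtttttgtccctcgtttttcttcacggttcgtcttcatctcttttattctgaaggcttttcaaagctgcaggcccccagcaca
mec-12, III:3140066-3140166, minus strand: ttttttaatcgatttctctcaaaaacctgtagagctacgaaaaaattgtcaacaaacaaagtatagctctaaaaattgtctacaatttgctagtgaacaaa

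None of these 3 sequences held any of the 8 words, and the G and C content was 37.6% at tba-4, 44.6% at tbb-2 and 28.7% at mec-12. By contrast the same length of sequence at the tbb-1 summit, with 3 matches, had 56.4% G and C. The other strong summits differed from it: G and C made up 42.6% at tba-2, with 2 matches, and 55.4% at tba-1, with none. At tbb-2 the peak of replicate 2 had its summit 891 bp upstream, and within 50 bp of that point G and C made up 53.5% and GCGCCA and CGCGCA were both found. Homeodomain words also stood within 50 bp of some weaker summits. They were TAATTG at the mec-12 summit of replicate 1, 742 bp upstream, and TAATTA and TAAACG at the pooled tbb-2 summit 239 bp downstream. At tba-2, TAATTA stood at the pooled summit 826 bp upstream and the replicate 1 summit 885 bp upstream. The CG words were picked at optimal summits, including those of tba-2 and tbb-1. More matches there than at other summits were thus partly fixed in advance.

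The authors gave 4 peak lists on ce11. The optimal list, made by the irreproducible discovery rate (IDR) procedure, held 545 peaks with signals from 38.9 to 792. The relaxed lists, which include background and were the input to that procedure, held 30000 peaks for the pooled replicates, 30000 for replicate 1 and 17926 for replicate 2. Signal is the authors' own peak height. Its scale differs between lists, with medians of 13.5, 7.7 and 9.89 in the pooled, replicate 1 and replicate 2 lists, so ranks and percentiles are given beside it. The lists hold no read counts, so the depth is unknown.

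Peaks of high rank lay at 3 of the widely expressed tubulin genes, tba-1, tba-2 and tbb-1, whereas the neuron-specific genes had peaks of low rank or none. The strongest tba-1 and tbb-1 summits lay nearer to the 5′ ends of cox-5B and rib-2. The remaining widely expressed genes also had lower pooled ranks, 7811 at tbb-2 and 16404 at tba-4, against 13310 at the neuron-specific tbb-4. Of the 8 genes, 2 had an optimal summit in the promoter window, tba-2 and tbb-1, against 3.17% of all protein-coding genes. Both are widely expressed isotypes, so the count was 2 of 5 for that group and 0 of 3 for the neuron-specific group. A pooled relaxed summit was present at 5 of 5 widely expressed and 2 of 3 neuron-specific genes, against 58.5% of all genes. Replicate 1 had a summit at 3 of 5 widely expressed and 2 of 3 neuron-specific genes, against 58.8% of all genes. Replicate 2 had one at 5 of 5 and 0 of 3, against 42.3% of all genes. Summits in both replicates were found at 3 of 5 widely expressed and 0 of 3 neuron-specific genes, against 30.8% of all genes. With 5 and 3 genes chosen after results were known, these counts describe the genes named and show no difference between classes of genes.

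**Figure D1:**
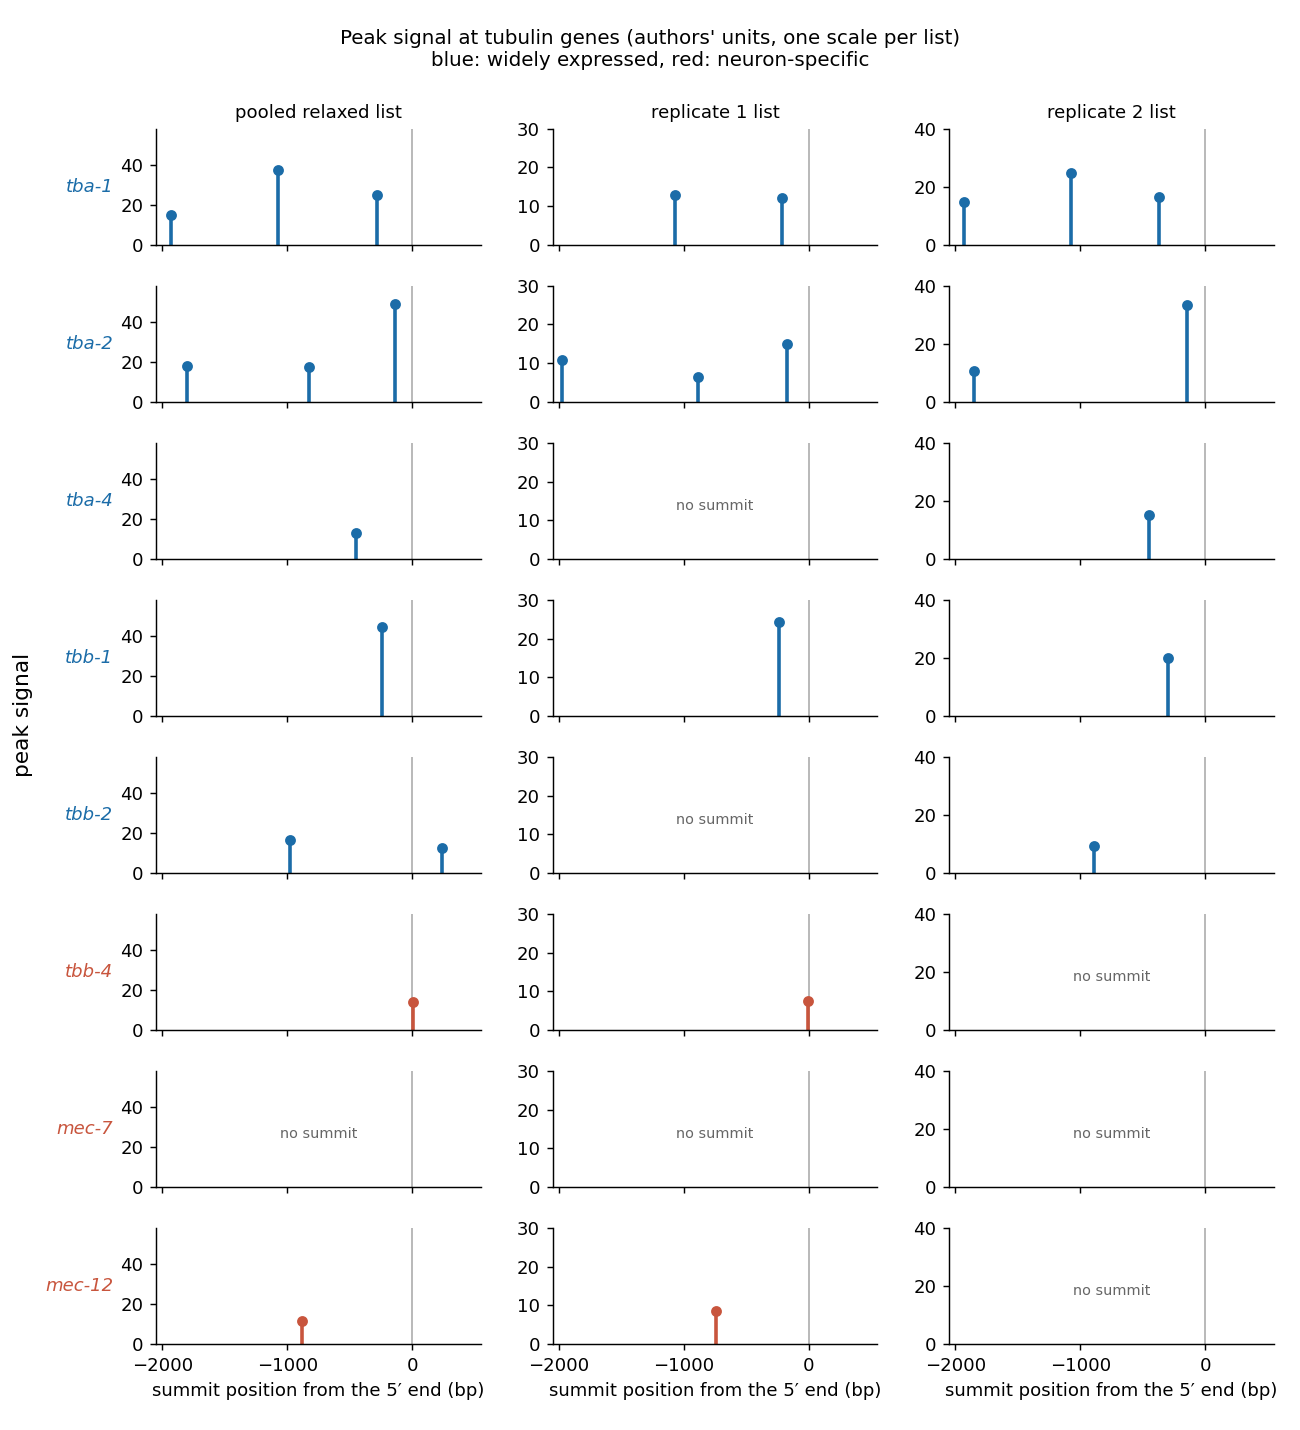
Peak signal (vertical axis, the authors' units, 1 scale per list) at each summit by its position from the annotated 5′ end in bp, for the pooled, replicate 1 and replicate 2 relaxed lists. Widely expressed genes are in blue and neuron-specific genes in red, and each stem is 1 summit. The tallest stems are tba-2 with 49.0 and tbb-1 with 44.5 in the pooled list, and mec-7 has none in any list.

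The highest signal of the family was at tba-2, which encodes an alpha tubulin of early divisions. The gene lies at I:12964674-12966795 on the minus strand, and the optimal peak at I:12966763-12967106 had its summit 140 bp upstream, in intergenic sequence. Its pooled signal was 49.0, rank 264 of 545 in the optimal list. The overlapping replicate peaks had a signal of 15 in replicate 1, rank 1434 of 30000, and 33.4 in replicate 2, rank 155 of 17926. At or below these signals were 95.2% of the peaks of replicate 1 and 99.1% of those of replicate 2. No other protein-coding gene had this pooled summit in its promoter window. The replicate 1 summit of the overlapping peak, 176 bp upstream, also lay in the window of eif-6. Farther out, the tba-2 window held pooled summits 826 bp upstream (signal 17.3, rank 6673), in a coding exon of the proteasome subunit gene pbs-2, and 1805 bp upstream (18.1, rank 5649). The summit at 1805 bp was nearest to the 5′ end of pbs-2, 320 bp away, and had overlapping peaks in both replicates. The annotation gives tba-2 another 5′ end 524 bp downstream of the first.

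The beta tubulin gene tbb-1, at III:10740868-10742432 on the minus strand, had the other optimal peak, at III:10742500-10742843. Its summit lay 240 bp upstream in intergenic sequence, with a pooled signal of 44.5 and rank 374 of 545. Replicate 1 gave a signal of 24.3, rank 285, and replicate 2 gave 20.1, rank 758, with the replicate 2 summit 295 bp upstream. Among the tubulins this was the peak with the highest signal in replicate 1. The summit was shared: rib-2, a heparan sulfate glycosyltransferase gene read in the opposite direction, begins 378 bp upstream of tbb-1, and its 5′ end was nearer to the summit, 138 bp away. The window of K01G5.8 also held it. The lists cannot say to which of these genes the peak belongs.

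The alpha tubulin gene tba-1, at I:9785781-9787624 on the minus strand, fell just short of the optimal list. Its strongest pooled summit had a signal of 37.3, rank 607 in the pooled list, and tbb-1 with 44.5 was the member just inside the optimal threshold of 38.9. Replicate 1 gave 12.9, rank 2498, and replicate 2 gave 24.7, rank 409. The summit lay 1075 bp upstream of tba-1 and 26 bp upstream of cox-5B, a cytochrome c oxidase subunit gene read in the opposite direction. A second pooled summit, 283 bp upstream and nearest to tba-1 itself, had a signal of 24.9, rank 1824. It was overlapped by a replicate 1 peak of signal 12, rank 3309, and a replicate 2 peak of 16.6, rank 1354. The third, 1929 bp upstream in a coding exon of cox-5B, had a pooled signal of 14.8 and an overlapping peak in replicate 2 only.

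The other widely expressed genes, tba-4 and tbb-2, had peaks of lower rank in the pooled list. At tba-4 (II:10918706-10920211, plus strand) the pooled summit lay 451 bp upstream, with a signal of 13.1 and rank 16404 of 30000. Replicate 2 had a peak there of signal 15, rank 1967 of 17926, and replicate 1 had none in the window. The tba-4 peak thus stood higher in the order of replicate 2 than in that of the pooled list. At tbb-2 (III:4015910-4017627, minus strand) the stronger pooled summit lay 980 bp upstream with a signal of 16.5, rank 7811. Replicate 2 had an overlapping peak of signal 9.41, rank 10488, and replicate 1 had none. A second pooled summit, 239 bp downstream in an intron of tbb-2, had a signal of 12.5 and no overlapping peak in either replicate. The isotypes tbb-1 and tbb-2 thus differed in their highest pooled signal in the window, 44.5 against 16.5, although both encode beta tubulins of the early embryo. This order depends on the shared tbb-1 peak, which lay nearer to rib-2. With summits given only to the nearest 5′ end, tbb-1 had none and tbb-2 kept its summit.

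Among the neuron-specific genes, tbb-4 and mec-12 had 1 weak pooled summit each and mec-7 had none. At tbb-4 (X:9434452-9436893, minus strand) the summit was 3 bp into the gene, in a coding exon, at rank 13310 with a pooled signal of 14. Replicate 1 had a peak of signal 7.59, rank 15611, and replicate 2 had none in the window. At mec-12 (III:3131574-3139234, minus strand) the summit lay 882 bp upstream, at rank 22595 with a pooled signal of 11.6. Replicate 1 had a peak of signal 8.49, rank 11331, with its summit 742 bp upstream, and replicate 2 had none. These 2 genes had support from replicate 1 alone, whereas tba-4 and tbb-2 had it from replicate 2 alone.

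The touch receptor gene mec-7 (X:7774856-7776689, minus strand) had no summit in its promoter window in any of the 4 lists. The nearest pooled summit lay 2650 bp downstream of its 5′ end, with a signal of 21.9 and rank 2754. The nearest replicate 2 summit was at the same place, with a signal of 15.3 and rank 1802, and the nearest replicate 1 summit was 2269 bp upstream, with a signal of 6.23. The nearest optimal summit was 33.0 kb away. For the other genes with no optimal summit in the window that distance was 49.7 kb at tba-1, 78.5 kb at tba-4, 13.3 kb at tbb-2, 29.0 kb at tbb-4 and 34.4 kb at mec-12. A missing peak means only that none was listed, since the depth of each library is unknown.

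**Figure D2:**
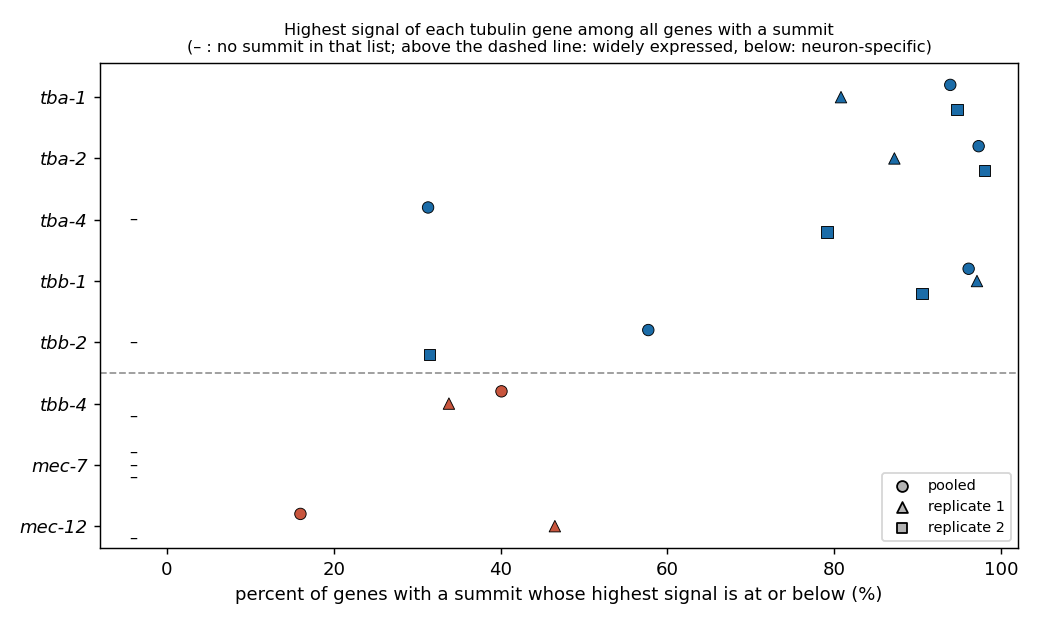
For each tubulin gene (rows), the percent of all protein-coding genes with a summit whose highest signal was at or below that of the gene, in the pooled (circle), replicate 1 (triangle) and replicate 2 (square) lists. Blue rows above the dashed line are widely expressed genes, red rows below it are neuron-specific, and a dash means no summit. In the pooled list tba-1, tba-2 and tbb-1 lie between 93.9% and 97.3%, and mec-12 lies at 16.0%.

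Ordered by the highest pooled signal in the window, the genes ran tba-2 (49.0), tbb-1 (44.5), tba-1 (37.3), tbb-2 (16.5), tbb-4 (14), tba-4 (13.1) and mec-12 (11.6), with mec-7 last. Each value is that of 1 list, so neighbours in this order have no error of their own. The replicates did not give the same order. In replicate 1 tbb-1 led with 24.3, before tba-2 with 15 and tba-1 with 12.9, and in replicate 2 tba-2 led with 33.4, before tba-1 with 24.7 and tbb-1 with 20.1. Both replicates put these same 3 genes above every other member. Of all protein-coding genes, 316 had a higher pooled signal in the window than tba-2, 453 than tbb-1 and 718 than tba-1.

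The weaker members lay in the ordinary range of the 11683 genes with a pooled summit. At or below their highest signal were 57.7% of those genes for tbb-2, 40.1% for tbb-4, 31.3% for tba-4 and 16.0% for mec-12. The widely expressed genes had a median highest pooled signal of 37.3 and the 2 neuron-specific genes with a summit had one of 12.8, against 15.3 over all genes with a pooled summit. The difference between the first 2 medians was 24.5. It was smaller when neighbours were set aside: with summits assigned to the closest 5′ end alone, which leaves tbb-1 with none and tba-1 with 24.9, the difference was 7.89. With a window of 1000 bp upstream it was 12.1. On the scale of replicate 1, without replicate 2, it was 6.93, with tba-4 and tbb-2 left out because they had no summit there. The groups overlapped, since the widely expressed tba-4 had a lower signal than the neuron-specific tbb-4.

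**Figure D3:**
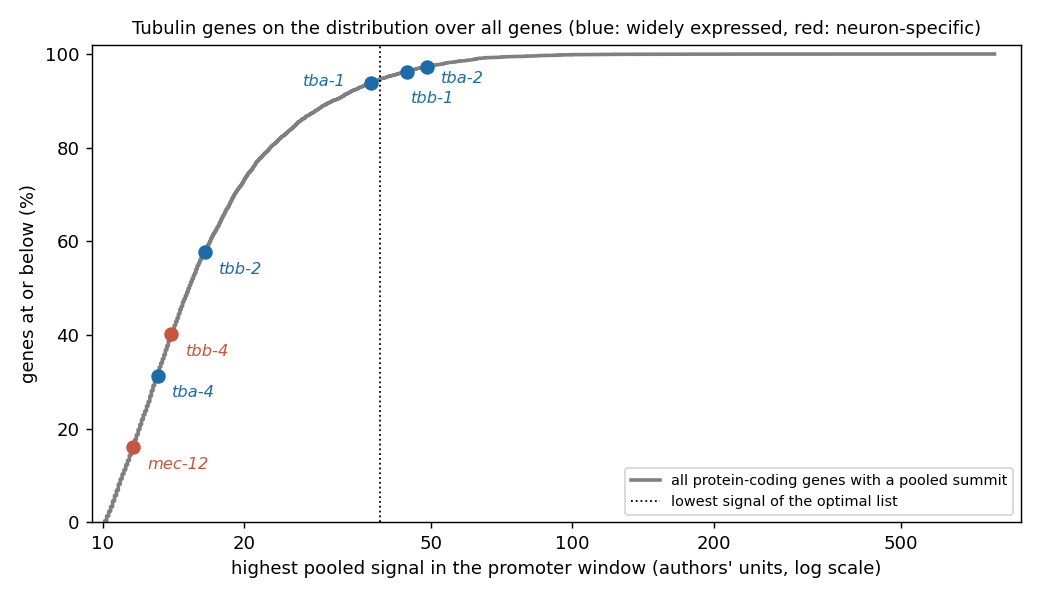
Cumulative share of the 11683 protein-coding genes with a pooled summit (vertical axis, percent) by their highest pooled signal in the promoter window (horizontal axis, log scale), with the tubulin genes marked on the curve. The dotted line is the lowest signal of the optimal list, 38.9. Of the marked genes, tba-2 and tbb-1 lie right of it and tba-1 just left of it.

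Each replicate on its own gave a different set of strong tubulin peaks. Among the 545 strongest peaks of replicate 1, only tbb-1 had a summit in its window. Among the 545 strongest of replicate 2 these were tba-1 and tba-2, while tbb-1, at rank 758, was not among them. Where both replicates had a peak, its position differed by up to 163 bp. The tba-1 summit beside cox-5B lay 1072 bp upstream in both replicates, and that of tba-2 lay 176 bp and 143 bp upstream in replicates 1 and 2. The tbb-1 summits lay 239 bp and 295 bp upstream, and those of the farther tba-2 peak 1975 bp and 1847 bp upstream. The widest gap was at the nearer tba-1 peak, whose summits lay 210 bp upstream in replicate 1 and 373 bp upstream in replicate 2.

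By the rule for likeness, the genes whose percentiles over the replicate 1, replicate 2 and pooled lists were nearest to those of tba-2 were rpl-35, a ribosomal protein gene, ftt-2, which encodes a 14-3-3 protein, and trmt-10C.2. Their distances were 0.677, 1.18 and 1.48 percentile points over 3 lists, among 5756 genes with a summit in all 3. The pooled list is made from the replicates, so the lists are not independent. For tbb-4, the neuron-specific gene of highest pooled signal, eme-1, T10B9.9 and ZK354.8 were nearest, with distances of 0.687, 1.15 and 1.87 over the 2 lists in which tbb-4 has a summit, among 3512 genes.

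The G and C content at the summits varied widely between and within genes. Within 50 bp of the strongest pooled summit, it was 55.4% at tba-1, 42.6% at tba-2, 37.6% at tba-4, 56.4% at tbb-1 and 44.6% at tbb-2, against 36.6% at tbb-4 and 28.7% at mec-12. The nearest values of the groups, at tba-4 and tbb-4, lay 1 base in 101 apart. Weaker summits of the widely expressed genes reached lower, with 21.8% at the tba-2 summit 1975 bp upstream in replicate 1, so over all summits the groups overlapped. The median was 48.5% over the 545 optimal summits and 35.6% over the 30000 pooled summits. The promoters as such did not follow this order. In the 300 bases before the 5′ end, G and C made up 40.3% at tba-1, 37.3% at tba-2, 39.0% at tba-4, 45.0% at tbb-1 and 27.3% at tbb-2, and 47.0% at tbb-4, 46.3% at mec-7 and 34.3% at mec-12. The median over all genes was 33.3% and the 95th percentile was 44.0%, which tbb-1, tbb-4 and mec-7 exceeded. The part of base composition in peak signal was not tested.

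**Figure D4:**
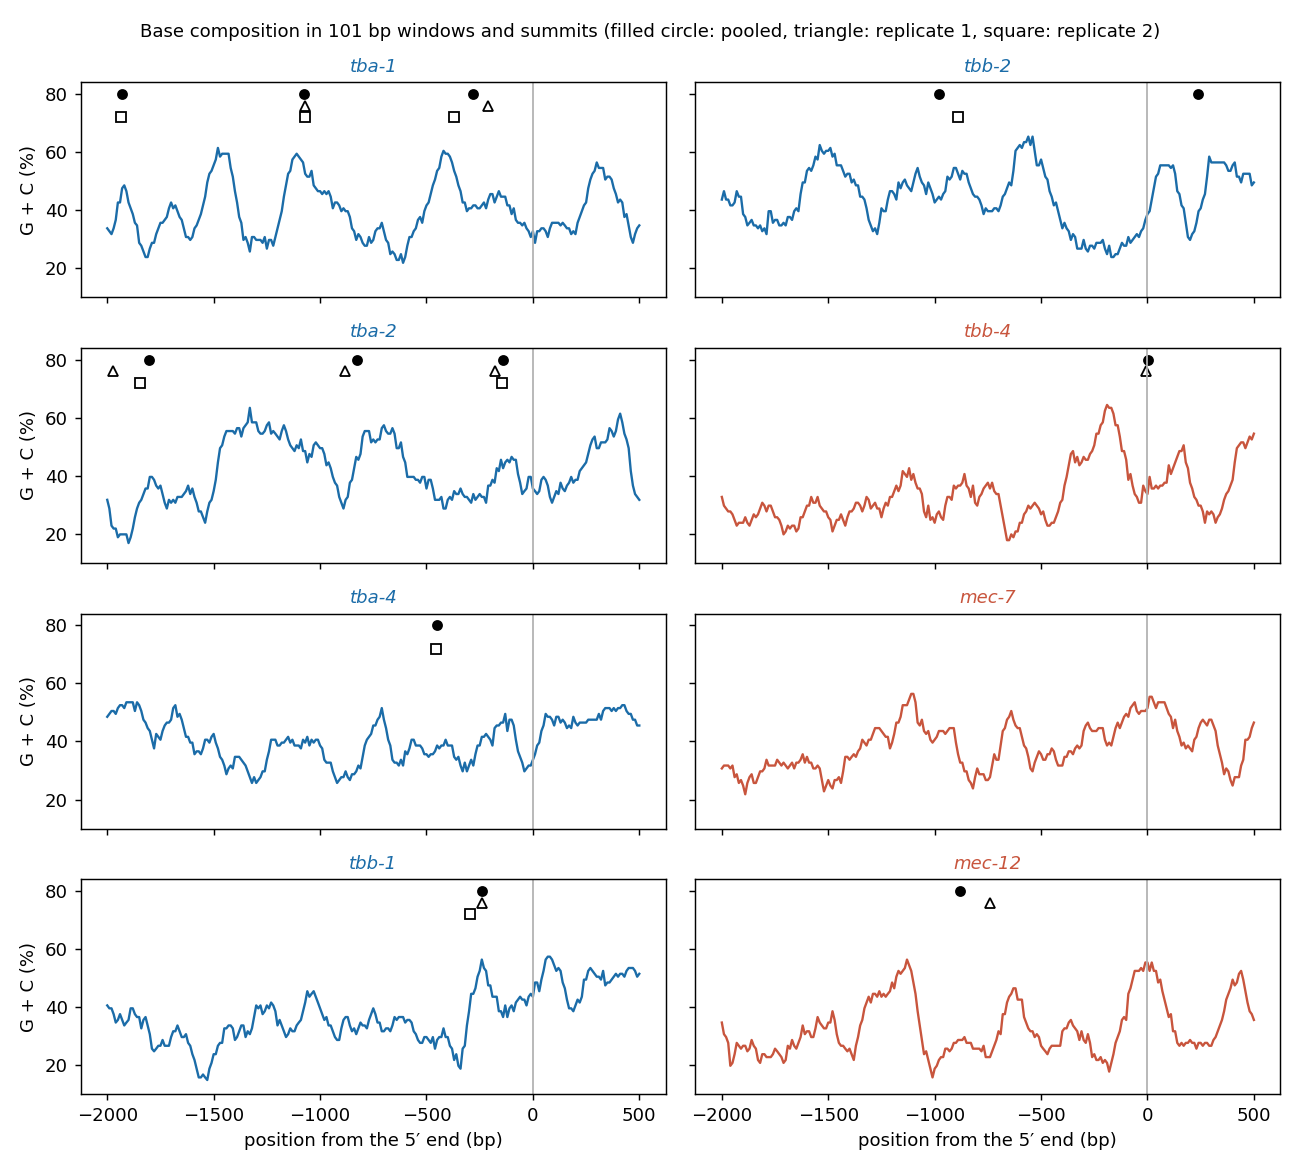
Percent G and C in windows of 101 bp (vertical axis) by position from the 5′ end in bp, for each tubulin gene, with the positions of the summits of the pooled (filled circle), replicate 1 (triangle) and replicate 2 (square) lists above. Blue curves are widely expressed genes and red curves neuron-specific genes. The tbb-1 summits stand over a local rise in G and C, whereas the rise before the 5′ end of tbb-4 has no summit over it.

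The 300 bases before the 5′ end held at least 1 of the 5 CG words at tba-2, tba-4, tbb-1 and mec-12, that is 3 of 5 widely expressed and 1 of 3 neuron-specific genes, against 23.6% of all 19973 promoters of that length. GCGCCA was found at tba-2, tba-4 and tbb-1, against 4.98% of promoters. At least 1 homeodomain word stood at tba-1, tbb-2 and mec-12, against 44.4% of promoters, and TAAT, the homeodomain core, stood in the promoters of all 8 genes and in 95.9% of all promoters. TTTCAG formed the last 6 bases before the 5′ end at tba-4, tbb-1, tbb-2 and tbb-4, against 12.3% of promoters. Such matches are letters only. At tba-2, the optimal summit had 2 CG word matches within 50 bp, GCGCCA and CGCGCA, and none of the pooled summits of tba-1 had any. Because the CG words were picked at optimal summits, their matches at tba-2 and tbb-1 are no independent result.

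Repeated sequence touched the summits little. Within 50 bp of each summit of the 8 genes, in all 4 lists, none of the words of 32 bases stood at more than 1 place in the nuclear genome. Over the whole promoter window the share of repeated words was 24.7% at tbb-4, 2.23% at tba-4 and 1.09% at tbb-2, and at most 0.0405% at the other genes. How the authors treated reads with several matches is not given in the sources used here, and its part in the peaks listed at tbb-4 was not tested. Every listed summit of the 8 genes was at least 1929 bp from the nearest tRNA, snoRNA, snRNA, rRNA or miRNA gene.

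The other tubulin genes of the worm are given beside the shares of all protein-coding genes. Of 8 others (tba-5 to tba-9, ben-1, tbb-6 and tbg-1), 0 had an optimal summit in the window, against 3.17% of all genes. A pooled relaxed summit was present at 3, against 58.5% of all genes, and summits in both replicates at 2, against 30.8%. Their median highest pooled signal was 22.2. The highest was 36.7 at tba-7, an alpha tubulin gene, where the summit lay 286 bp downstream of the 5′ end in an intron. It ranked 640 in the pooled list, and the highest summits in the window ranked 3729 in replicate 1, 1436 bp upstream, and 250 in replicate 2, 244 bp downstream. Next was tbg-1, which encodes gamma tubulin, with 22.2 at a summit 791 bp upstream that was nearer to rpac-19, 60 bp away.

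Genes that fold tubulin had pooled summits at 18 of 21, against 58.5% of all genes, with a median signal of 29.5 against 15.3 over all genes with a pooled summit. At 9 of those 18 genes the highest summit was nearer to the 5′ end of another gene. This list holds, among others, the subunits of the chaperonin CCT, the prefoldins and the tubulin cofactors, and summits in both replicates were found at 15. Only cct-7 had an optimal summit, 301 bp upstream with a signal of 40.1, and T10B5.4, whose 5′ end was 138 bp away, was nearer. Genes that modify tubulin had pooled summits at 7 of 10 found and optimal ones at 0, led by ttll-12 (signal 28.9), of the tubulin tyrosine ligase family, and atat-2 (28.3), an alpha tubulin acetyltransferase gene. The ttll-12 summit lay in a coding exon of scp-1.

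Genes of microtubule nucleation and dynamics had optimal summits at 3 of 21 and pooled ones at 17, with a median signal of 15. The highest of these was at cls-2, a CLASP gene, where the peak signal was 73.2. Its summit lay 965 bp upstream and nearer to R107.5. Its peaks ranked 626 in replicate 1 and 29 in replicate 2. At spas-1, which encodes the severing enzyme spastin, the signal was 45.7 at a summit 339 bp upstream. At ptrn-1, which encodes the minus-end protein patronin, it was 45.2 at a summit 493 bp upstream. Genes of the touch receptor neurons, where mec-7 and mec-12 act, had optimal summits at 0 of 11, pooled ones at 3 and summits in both replicates at 0. Their median pooled signal was 10.7. The highest were mec-6, which encodes a protein of the touch channel complex, with 22.3 at a summit 306 bp upstream and none in replicate 2, and mec-10, a channel subunit gene, with 10.7. These lists were compiled with earlier results of the data known, and the counts stand against the shares for all genes given above.

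**Figure D5:**
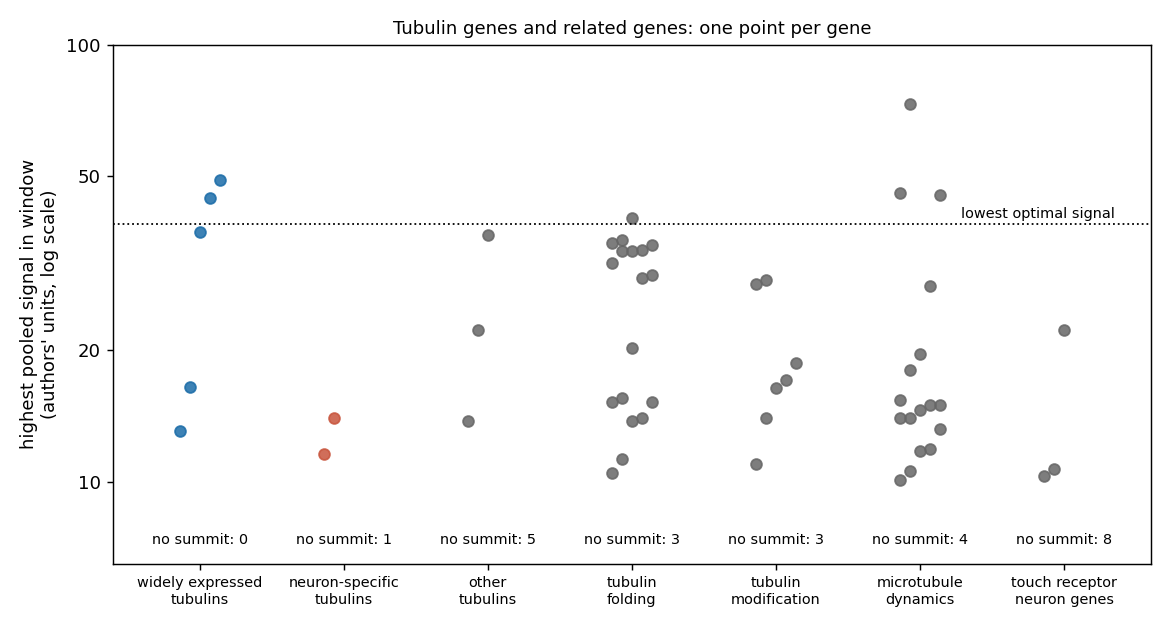
Highest pooled signal in the promoter window (vertical axis, log scale) of each gene with a pooled summit, by list, with 1 point per gene and the number of genes without a summit below. Tubulin genes are in blue (widely expressed) and red (neuron-specific), and other lists are in grey. The dotted line is the lowest optimal signal, 38.9, and the points above it are tba-2, tbb-1, cct-7, cls-2, spas-1 and ptrn-1.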

How the data were processed

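Peak lists were taken as the authors deposited them, 4 per assembly (ce11 and ce10), with replicates numbered as in the labels. Per the deposited file listing, the relaxed lists, each replicate against a control and both replicates pooled, hold peaks with background, and the IDR procedure made the optimal list from them. The deposited signal value is a peak height with no stated unit. Which aligner, caller and IDR threshold were used is not given in the sources used here.

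Summits (the peak start plus the listed offset, 1-based) on ce11 were set against 5′ ends of genes in Ensembl release 115 of WBcel235, the same coordinates. A replicate supports a pooled summit if its peak overlaps by at least 1 bp. All 19973 protein-coding genes gave the background shares. Base composition and words of 6 bases were read from the RefSeq WBcel235 genome with Python 3.11.15, numpy 2.4.6 and pandas 2.3.3. The window search was checked on simulated summits.

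The members, the lists and the words were chosen with earlier results of these data known. Named genes were the 8 members, genes sharing their summits, the 3 genes most like each of 2 members, and, per list, those with an optimal summit or else the 2 of highest pooled signal. Of 71 related genes, 70 were matched by name, and hdac-6 was not. The ce10 lists were used only as an alternative. With 1 group, no test between groups was made. Alternatives were other windows, other 5′ ends, peak overlap, nearest-gene assignment, shorter lists and single replicates.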

Additional observations from a re-analysis of the deposited data

How the results depend on the processing

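The count of 2 members with an optimal summit held for windows of 1000 bp upstream to 500 bp downstream and of 500 bp upstream to the 5′ end, for all transcript 5′ ends and for peak overlap. The ce10 optimal list was only searched for a peak of like signal (within 1%) on the same chromosome, which does not place a summit at a gene and so does not bear on the count. It was 1 with each summit given only to the nearest 5′ end, where tbb-1 lost its summit to rib-2, and 1, tba-2, among the optimal peaks above the median signal of that list. Single replicates have no optimal list here, so the 545 strongest relaxed peaks of each were taken instead. Replicate 1 alone gave 1 member, tbb-1. Replicate 2 alone gave 2, tba-1 and tba-2, which is not the pair of the main count. Members with a pooled summit fell to 4 of 8 in the window of 500 bp upstream. The share of all genes was found only for the main window, and a shorter window cannot raise a count. Whether the fall differs from that over all genes is thus unknown, and it is not read as a trait of the members. The signal difference of 24.5 between the group medians was 12.1 in the window of 1000 bp upstream and 7.89 by nearest 5′ end. Without replicate 2 it was 6.93, on the different scale of replicate 1. That value rests on 3 widely expressed genes, as tba-4 and tbb-2 had no replicate 1 summit, so it cannot be set against 24.5. No value could be had without replicate 1 or in the window of 500 bp upstream, since no neuron-specific gene then had a summit in the list used. That window stops at the 5′ end, and the pooled tbb-4 summit lay 3 bp past it. The replicate 1 summit of tbb-4, 5 bp upstream, stayed inside. No paired analysis was possible because the samples form 1 group. Depth per library is unknown, which limits every statement on a missing peak.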

Other observations

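The surroundings of mec-7 held fewer listed peaks than those of the other tubulin genes, with no count over all genes set beside them. Within 10 kb of its 5′ end lay 3 pooled summits, 3 of replicate 1 and 2 of replicate 2. The other 7 tubulin genes had from 6 to 9 pooled summits, from 4 to 9 of replicate 1 and from 3 to 8 of replicate 2 in the same distance. The most pooled summits, 9, lay around tbb-4, another X-linked neuronal gene, although none of them was in the optimal list. Gaps to the next protein-coding gene upstream also varied, at 1101 bp for tba-1, 421 bp for tba-2, 1432 bp for tba-4, 378 bp for tbb-1 and 2410 bp for tbb-2, and 3186 bp for tbb-4, 342 bp for mec-7 and 2964 bp for mec-12. The short gaps of tbb-1 and mec-7 thus went with a strong peak and with none.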
